A study of Mus musculus with 7 samples.

Results

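H3K27ac, the acetylation of lysine 27 of histone H3 that marks active promoters and enhancers, was followed here at the loci of Klf2, Klf4 and Klf5 while NeuroD1 was induced in mouse embryonic stem cells. A peak was assigned to a gene when the transcription start site closest to its centre, among all protein-coding start sites of GENCODE's mouse annotation for mm10, was a start site of that gene and lay within 100 kb. By this rule 63 of the 66841 merged peaks belonged to the 3 genes, 26 to Klf2, 13 to Klf4 and 24 to Klf5. Peaks reaching within 2 kb of a protein-coding start site were called promoter peaks and all others distal peaks. This gave 5 promoter peaks (1 of Klf2, 2 of Klf4 and 2 of Klf5) and 58 distal peaks (25, 11 and 22). The rule itself uses positions and no read counts. Promoters made up 16416 of all merged peaks and distal peaks 50425.

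The cells were of the A2Lox embryonic stem cell line with a transgene in which doxycycline switches on mouse NeuroD1 joined to an HA tag. They were grown with LIF and taken off their feeder layer before the experiments. Cells were collected uninduced (minusDox, 0 h) and after 12 h and 48 h with doxycycline at 500 ng per ml, with 2 H3K27ac libraries (R1 and R2) at each time point. All cells carried the transgene and no doxycycline-treated cells without it were analysed here, so NeuroD1, doxycycline and time in culture cannot be told apart. Nothing in the labels says that R1 and R2 came from separate cultures, so the p-values measure the spread between these libraries, which may be technical.

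Klf2, Klf4 and Klf5 are zinc-finger transcription factors of the Krüppel-like family that bind GC-rich CACCC-type sites. In mouse embryonic stem cells they overlap in function and help to keep the naive pluripotent state, and Klf4 is known for its use in reprogramming somatic cells. Klf4 is a target of LIF signalling through STAT3, and all 3 genes are expressed in naive stem cells and are known to decline as these cells differentiate. Each is linked to enhancers outside its promoter, which is why promoter and distal peaks were compared. In a bulk ChIP, fewer cells with the mark and less of the mark per cell cannot be told apart.

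Klf2 (ENSMUSG00000055148.7) lies at chr8:72319033-72321656 on the plus strand, Klf4 (ENSMUSG00000003032.8) at chr4:55527143-55532466 on the minus strand and Klf5 (ENSMUSG00000005148.8) at chr14:99298691-99315036 on the plus strand. The sequences right before the start sites of Klf2 and Klf4 are given because the promoter peaks lie over them. They are from RefSeq's promoter table (GRCm38.p6), 5′ to 3′ on the strand of the gene, chr8:72318812-72319032 and chr4:55532476-55532725. Capitals mark any of the 7 words searched for, which are CAGATG and CAGCTG (E-boxes that proneural bHLH dimers can bind), GGGNGTGG (KLF), TTCCNGGAA (STAT3), TCAAGGTCA (ESRRB), ATGCAAAT (the octamer of POU factors) and CATTGTT (SOX), on either strand.
Klf2 promoter: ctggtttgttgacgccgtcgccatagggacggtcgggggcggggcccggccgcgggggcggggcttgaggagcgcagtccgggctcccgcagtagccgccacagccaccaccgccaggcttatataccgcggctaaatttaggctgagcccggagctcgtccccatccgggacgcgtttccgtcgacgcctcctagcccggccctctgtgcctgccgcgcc
Klf4 promoter: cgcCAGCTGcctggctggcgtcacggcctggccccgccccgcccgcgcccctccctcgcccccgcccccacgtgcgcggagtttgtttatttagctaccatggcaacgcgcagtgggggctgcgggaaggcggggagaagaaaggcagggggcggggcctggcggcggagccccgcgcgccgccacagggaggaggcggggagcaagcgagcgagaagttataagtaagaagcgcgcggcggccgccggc
The Klf2 stretch was 71.5% G and C and held none of the words, and the Klf4 stretch was 74% G and C and held CAGCTG at its 5′ end. CAGCTG was present in 13% of 32851 promoters over the same 250 bases.

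For each gene, the distal peak with the largest change among those that passed the test in any comparison is shown as well, a choice made after the values were seen. These are bases 72325010 to 72325309 of chromosome 8 within a peak 6.1 kb downstream of the Klf2 start site, and the whole peak chr4:55460857-55461143 at 71.5 kb downstream of the Klf4 start site. For Klf5 they are bases 99388327 to 99388626 of chromosome 14 within a peak 89.3 kb downstream of the Klf5 start site. They are written from mm10 on the plus strand with the same words in capitals.
Klf2 distal: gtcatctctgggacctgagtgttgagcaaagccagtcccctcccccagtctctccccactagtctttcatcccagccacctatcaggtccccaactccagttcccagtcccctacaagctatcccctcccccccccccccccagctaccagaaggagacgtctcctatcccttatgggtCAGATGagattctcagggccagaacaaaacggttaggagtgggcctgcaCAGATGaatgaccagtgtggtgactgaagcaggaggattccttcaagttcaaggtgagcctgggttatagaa
Klf4 distal: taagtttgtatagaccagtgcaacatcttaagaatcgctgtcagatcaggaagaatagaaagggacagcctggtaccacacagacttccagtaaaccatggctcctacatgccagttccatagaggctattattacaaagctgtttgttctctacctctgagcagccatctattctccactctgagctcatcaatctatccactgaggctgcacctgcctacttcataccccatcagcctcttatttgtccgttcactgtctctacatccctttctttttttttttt
Klf5 distal: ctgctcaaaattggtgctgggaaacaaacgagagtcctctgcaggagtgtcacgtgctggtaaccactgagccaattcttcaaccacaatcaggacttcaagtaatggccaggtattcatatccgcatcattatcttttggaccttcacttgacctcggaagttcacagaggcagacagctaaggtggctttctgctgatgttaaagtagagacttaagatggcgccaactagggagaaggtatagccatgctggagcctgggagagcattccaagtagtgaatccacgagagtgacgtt
The Klf2 stretch held CAGATG at 2 places and the other stretches held none of the words. CAGATG was found in 18.5% of the 300-base windows at the centres of 66783 merged peaks. The Klf4 sequence belonged to a peak that gained H3K27ac at 12 h and the Klf2 and Klf5 sequences to peaks that lost it at 48 h, as given below.

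The 6 libraries held 6283103 to 8112895 reads in merged peaks, and values are given as scaled reads, which are read counts brought to the mean of these totals. The peaks of the 3 genes held a median of 33.1 scaled reads, against 30.4 over all peaks. All but 1 of the 63 reached 10 reads in 2 or more libraries. Peaks, and sums of reads over the promoter or distal peaks of a gene, were tested with edgeR's quasi-likelihood test and adjusted by Benjamini-Hochberg over all peaks or all genes, and gained or lost means an adjusted p under 0.05. R1 and R2 differed more at 48 h (chi-square per degree of freedom 5.54 over all peaks) than at 0 h (1.79) or 12 h (1.42). The ratio of the 48 h libraries followed GC content across all peaks (Pearson's r 0.56, as a description). Of the 58 distal peaks of the 3 genes, 49 were lower in 48 h R1 than in 48 h R2, against 62.7% of all distal peaks. The libraries were checked against marker genes by their promoter peaks. Of 10 stem cell markers 9 had a promoter peak (all but Tdgf1), with sums of 21111 and 21413 scaled reads at 0 h, 23321 and 23594 at 12 h, then 15510 and 18787 at 48 h. Of 10 neuronal markers 9 had one (all but Dcx), with sums from 819 to 923 at 0 h, from 895 to 903 at 12 h and of 1987 and 1493 at 48 h. Feeder fibroblast markers had 2 of 10, with sums from 13.9 to 40.3 in all libraries and no peak at Col1a2, Col3a1, Thy1, Dcn, Fbn1, Twist2, Postn or S100a4. Endoderm markers had 2 of 7, with sums from 76.4 to 117 and no peak at Gata4, Gata6, Sox17, Foxa2 or Sox7.

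Each of the 3 loci held at least 1 very wide peak, with widths after merging over all time points. Of the 63 peaks 5 were at least 10 kb wide, a width reached by 268 of all merged peaks (0.401%), and these 5 held 71.9% of the reads of the 3 loci over the 6 libraries. At Klf2 the promoter peak itself was 16.5 kb wide (chr8:72307595-72324106), so that it covered the gene and the sequence upstream of it, and it ranked number 33 of all merged peaks by mean reads of the 6 libraries. Its density at 0 h was 230 scaled reads per kb. The widest distal peaks were 10.4 kb at 15.2 kb downstream of Klf2 (181 scaled reads per kb at 0 h), 12.8 kb at 56.4 kb downstream of Klf4 (154), and 12.1 kb and 10.8 kb at 39.5 kb and 53.5 kb downstream of Klf5 (119 and 121). All 4 lay outside protein-coding genes. By contrast, 42 of the 63 peaks were under 1 kb wide.

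**Figure D1:**
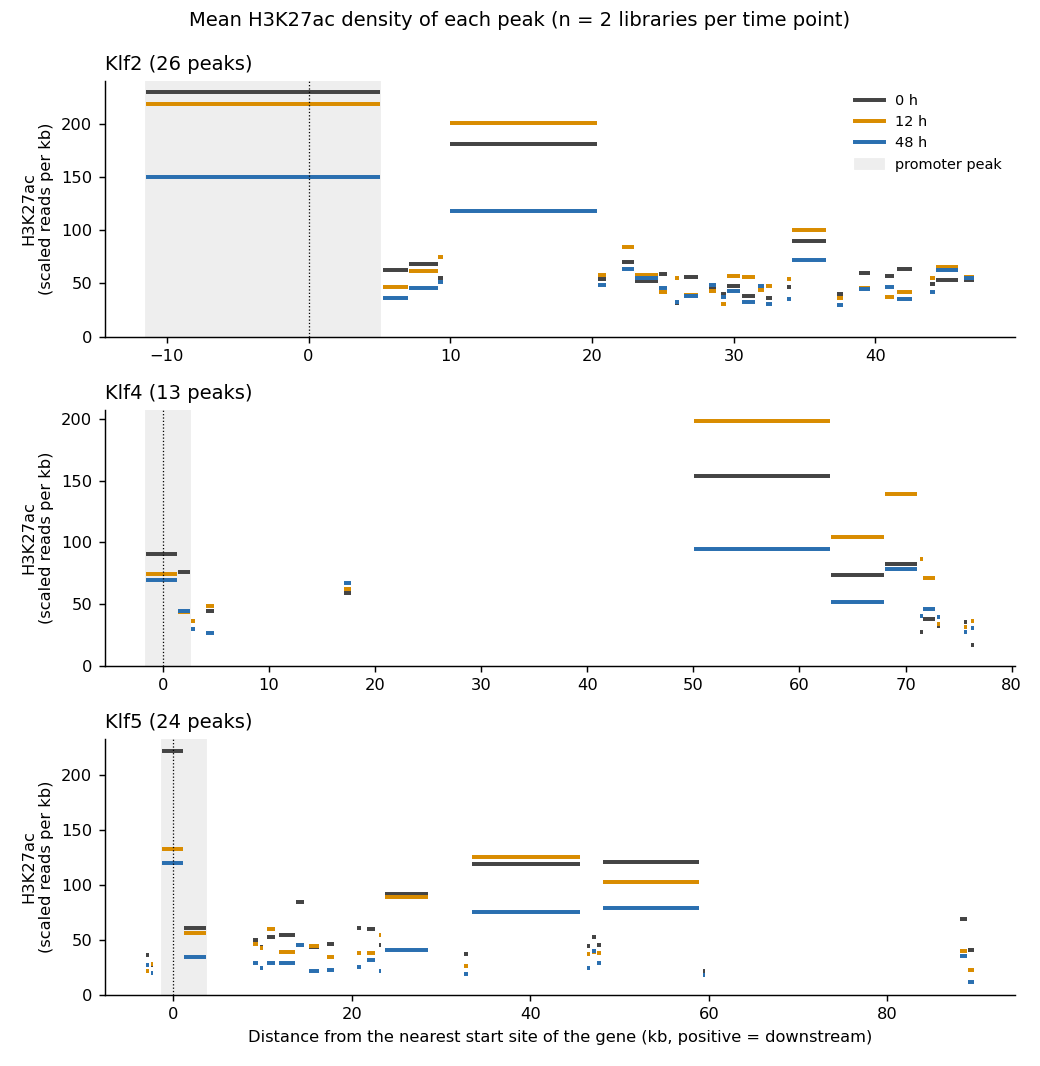
Mean H3K27ac density (scaled reads per kb, vertical axis) of every merged peak of Klf2, Klf4 and Klf5, drawn over the peak's width at its distance from the start site (kb, horizontal axis), with 1 line per time point (2 libraries each) and promoter peaks shaded. At each of the 5 peaks of at least 10 kb and at the narrow peak over the Klf5 start site the 48 h line is the lowest.

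Reads concentrated differently around the 3 genes. At Klf4 the distal peaks held 89.5% and 87.8% of the reads at 0 h, and the promoter peaks were less dense, with 90.3 scaled reads per kb over the start site at 0 h. At Klf5 the distal share was 86.6% and 82.9%, and the promoter peak over the start site was dense and narrow, with 222 scaled reads per kb over 2.4 kb. At Klf2 the distal share was 45.5% and 44.4%, and the wide promoter peak held the rest. Of the 25 distal peaks of Klf2, 20 lay within Eps15l1, the neighbouring gene on the minus strand, 22.6 to 46.6 kb from the Klf2 start site, and their centres were closer to a Klf2 start site than to any other protein-coding one. Of the 11 distal peaks of Klf4, 8 formed a group 56.4 to 76.3 kb downstream of the gene, of which 7 lay in the non-coding gene Gm12510.

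Klf2 lost H3K27ac at 48 h, at the promoter and in the sum of the distal peaks, while no change at 12 h passed the test. Of its 25 distal peaks 2 were lost at 48 h vs 0 h (8%, against 6.29% of all distal peaks). The promoter peak held 3698 and 3895 scaled reads at 0 h (R1 and R2), 3624 and 3569 at 12 h, then 2207 and 2763 at 48 h. Both 48 h libraries were below the other 4. The promoter sum of Klf2 is this peak alone, and it fell by 34.5% between 0 h and 48 h (log2 fold change -0.61, SE 0.13, adjusted p = 0.015 over all promoter sums). It fell by 30.9% between 12 h and 48 h (-0.53, SE 0.13, adjusted p = 0.01). Over all genes with promoter peaks, 1.78% of promoter sums lost H3K27ac between 0 h and 48 h and 2.97% between 12 h and 48 h. Its 12 h change did not pass the test (-0.08, SE 0.12, adjusted p = 0.63).

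The distal sum of Klf2 was 3084 and 3105 scaled reads at 0 h, 3450 and 3152 at 12 h, then 1858 and 2606 at 48 h. Here too the 48 h libraries were the lowest. It fell by 27.8% at 48 h vs 0 h (log2 fold change -0.47, SE 0.16, adjusted p = 0.04), a contrast in which 12.5% of all distal sums were lost. It fell by 32.4% at 48 h vs 12 h (-0.56, SE 0.16, adjusted p = 0.018), in which 14.7% were lost. The difference at 12 h was within the error (0.09, SE 0.16, adjusted p = 0.71). The loss came mostly from the peaks closest to the gene. In the 10.4-kb peak 15.2 kb downstream (chr8:72329001-72339374) scaled reads were 1851 and 1895 at 0 h, 2142 and 2032 at 12 h, then 984 and 1470 at 48 h. Its log2 fold change was -0.61 (SE 0.16, adjusted p = 0.011) against 0 h and -0.76 (SE 0.16, adjusted p = 0.0021) against 12 h. The peak 6.1 kb downstream (chr8:72324281-72326039) was smaller, with 102 and 119 scaled reads at 0 h, 86.8 and 78.2 at 12 h, then 51.1 and 77.4 at 48 h. It was lost at 48 h vs 0 h (-0.76, SE 0.26, adjusted p = 0.048).

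The 20 distal peaks inside Eps15l1 summed to 931 and 917 scaled reads at 0 h, 1020 and 880 at 12 h, then 726 and 881 at 48 h. By edgeR none of these 20 peaks was called in any comparison (unadjusted p under 0.05 in 0 peaks at 12 h, in 1 at 48 h and in 2 between 12 h and 48 h), and by DESeq2 none either, though DESeq2 gave no adjusted p for 5 of them at 12 h and 8 between 12 h and 48 h. Of all distal peaks edgeR called 6.29% lost and 9.76% gained at 48 h vs 0 h. In that comparison 14 of the 20 peaks had a negative log2 fold change, against 56% of all distal peaks. The changes of the 20 ran from -0.81 to 0.25. Calls of the Klf2 sums at 48 h were lost in several fits without a 0 h or 12 h library, while the sizes of the changes moved more without a 48 h library. The promoter change at 48 h vs 0 h was -0.65 and -0.57 without 0 h R1 and R2, and -0.61 without either 12 h library. Without 48 h R1 and R2 it was -0.46 and -0.78. For the promoter sum the adjusted p at 48 h vs 0 h rose to 0.14 without 0 h R1, 0.31 without 0 h R2, 0.065 without 12 h R1 and 0.066 without 12 h R2. For the distal sum it rose to 0.19, 0.24, 0.1 and 0.099. Between 12 h and 48 h the promoter sum lost its call without 12 h R1 (0.096) or 12 h R2 (0.11). The distal sum lost it without 0 h R1 (0.056), 0 h R2 (0.057), 12 h R1 (0.2) or 12 h R2 (0.12). The distal change at 48 h vs 0 h was -0.25 without 48 h R1 and -0.74 without 48 h R2. Between 12 h and 48 h it was -0.34 and -0.83. The part of the spread between the 48 h libraries in the losses was not tested beyond leaving out each library.

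At Klf4 3 of 11 distal peaks gained H3K27ac at 12 h (27.3%, against 12.4% of all distal peaks). Between 12 h and 48 h 3 of the 11 lost it (27.3%, against 10.3%), and only chr4:55461435-55464363 was called in both comparisons. Of its 2 promoter peaks 1 was lost by 12 h, against 17% of all promoter peaks. The 3 peaks of the 3 loci that gained H3K27ac at 12 h all lay in the distal group downstream of Klf4. In the largest of them (chr4:55461435-55464363, 2.9 kb wide, 69.6 kb downstream) scaled reads were 262 and 219 at 0 h, 402 and 415 at 12 h, then 194 and 264 at 48 h. The 12 h libraries lay above the other 4. Its log2 fold change was 0.77 (SE 0.19, adjusted p = 0.0082) at 12 h vs 0 h and -0.83 (SE 0.19, adjusted p = 0.0047) at 48 h vs 12 h. The neighbouring peak chr4:55459696-55460808 held 42.1 and 41.4 at 0 h, 87.9 and 69.9 at 12 h, then 35.5 and 67.1 at 48 h (0.91, SE 0.3, adjusted p = 0.039 at 12 h). The peak chr4:55460857-55461143, whose sequence is shown above, had few reads, with 5.13 and 10.6 at 0 h, 32.2 and 17.5 at 12 h, then 7.77 and 15.5 at 48 h (1.63, SE 0.51, adjusted p = 0.03 at 12 h).

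The larger peaks of the same group did not pass the test at 12 h vs 0 h but lost H3K27ac between 12 h and 48 h. The 12.8-kb peak (chr4:55469611-55482425) held 1949 and 1993 scaled reads at 0 h, 2607 and 2481 at 12 h, then 956 and 1476 at 48 h. Its log2 fold change was 0.37 (SE 0.16, adjusted p = 0.11) at 12 h vs 0 h and -1.06 (SE 0.16, adjusted p = 0.00014, called without each of the libraries in turn) at 48 h vs 12 h. Against 0 h the 48 h change was -0.7 (SE 0.16, adjusted p = 0.0043). The 5.1-kb peak next to it (chr4:55464464-55469525) held 373 and 374 at 0 h, 587 and 468 at 12 h, then 199 and 323 at 48 h. Its log2 fold change was 0.5 (SE 0.2, adjusted p = 0.086) at 12 h and -1.01 (SE 0.2, adjusted p = 0.0017) at 48 h vs 12 h. Together the 8 peaks of the group had 2655 and 2665 scaled reads at 0 h, 3754 and 3474 at 12 h, then 1412 and 2184 at 48 h.

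Over all 11 distal peaks of Klf4 the sum was 2746 and 2747 scaled reads at 0 h, 3851 and 3561 at 12 h, then 1491 and 2257 at 48 h. The 12 h libraries were the highest and the 48 h libraries the lowest. The sum changed by 34.9% at 12 h vs 0 h, which missed the threshold (log2 fold change 0.43, SE 0.17, adjusted p = 0.079). It fell by 49.4% at 48 h vs 12 h (-0.98, SE 0.17, adjusted p = 0.00073) and fell by 31.7% at 48 h vs 0 h (-0.55, SE 0.17, adjusted p = 0.025). At 12 h vs 0 h it passed the test with TMM factors (0.50, adjusted p = 0.022), in DESeq2 (0.48, adjusted p = 0.035), and without 48 h R1 (adjusted p = 2.3e-06) or 48 h R2 (adjusted p = 2.5e-06). The call at 48 h vs 0 h was lost without 0 h R1 (adjusted p = 0.15), 0 h R2 (0.19), 12 h R1 (0.064) or 12 h R2 (0.064). The change was -0.28 without 48 h R1 and -0.88 without 48 h R2.

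The promoter peaks of Klf4 were low and gave a weaker picture. The peak over the start site (chr4:55531135-55534033) held 235 and 289 scaled reads at 0 h, 225 and 206 at 12 h, then 228 and 175 at 48 h, and did not pass the test in any comparison. The peak 2 kb downstream (chr4:55529890-55531086), which overlaps exons of the gene, held 88.3 and 93.4 at 0 h, 59 and 44.2 at 12 h, then 58.8 and 46.4 at 48 h. It was lost at 12 h (log2 fold change -0.82, SE 0.27, adjusted p = 0.037) and at 48 h vs 0 h (-0.79, SE 0.27, adjusted p = 0.046). Neither call was made with an offset on GC content (-0.41 at 12 h and -0.57 at 48 h), with TMM factors or in DESeq2. The promoter sum was 323 and 382 at 0 h, 284 and 250 at 12 h, then 286 and 222 at 48 h. The log2 fold changes were -0.4 (SE 0.17, adjusted p = 0.087) at 12 h and -0.48 (SE 0.17, adjusted p = 0.17) at 48 h vs 0 h. The median change of the promoter sums of 12039 genes was itself -0.4 at 12 h. With the GC offset the change at 12 h was 0.00 (SE 0.14), and the promoter peaks of the 3 genes had a median GC content of 57.3% against 47.9% in their distal peaks. At 12 h the sum passed the test without 48 h R1 or 48 h R2 (adjusted p = 0.0022 in both cases), and at 48 h vs 0 h without 48 h R1 (-0.67, adjusted p = 0.00019).

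Klf5 had the most widespread loss of the 3 loci. All 24 of its peaks had a negative log2 fold change at 48 h vs 0 h, against 52.8% of all merged peaks. The changes ran from -1.76 to -0.33 with a median of -0.87, against -0.04 over all merged peaks. Of the 24 peaks 12 were lost (50%, against 5.45% of all merged peaks). The promoter peak over the start site (chr14:99297850-99300288) held 449 and 634 scaled reads at 0 h, 337 and 311 at 12 h, then 283 and 301 at 48 h. It was lost by 12 h (log2 fold change -0.74, SE 0.18, adjusted p = 0.0079) and at 48 h vs 0 h (-0.89, SE 0.18, adjusted p = 0.0018). Between 12 h and 48 h no further change passed the test (-0.15, SE 0.19, adjusted p = 0.61). The peak in the gene body 2.4 kb downstream (chr14:99300343-99302779) had another course, with 149 and 145 at 0 h, 146 and 127 at 12 h, then 77.7 and 92 at 48 h. It was lost between 12 h and 48 h (-0.68, SE 0.23, adjusted p = 0.039 at 48 h vs 12 h, and -0.11, SE 0.22, adjusted p = 0.75 at 12 h vs 0 h).

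The promoter sum of Klf5 was 598 and 779 scaled reads at 0 h, 482 and 438 at 12 h, then 361 and 393 at 48 h. The libraries of the 3 time points did not overlap. It fell by 33.2% at 12 h (log2 fold change -0.58, SE 0.15, adjusted p = 0.02), in a contrast where 26.6% of all promoter sums were lost and the median was -0.4. It fell by 45.2% at 48 h vs 0 h (-0.87, SE 0.15, adjusted p = 0.0052), where the median was 0.06. The call at 12 h was lost without 0 h R1 (-0.76, adjusted p = 0.073), 0 h R2 (-0.38, adjusted p = 0.21), 12 h R1 (adjusted p = 0.14) or 12 h R2 (adjusted p = 0.2) and with TMM factors (-0.52, adjusted p = 0.061). The call at 48 h was lost without 0 h R2 (-0.67, adjusted p = 0.18). Between 12 h and 48 h the sum did not pass the test (-0.29, SE 0.15, adjusted p = 0.13) but did with the GC offset (-0.35, adjusted p = 0.031) and without 48 h R2 (-0.35, adjusted p = 0.016).

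The distal sum of Klf5 was 3867 and 3777 scaled reads at 0 h, 3484 and 3603 at 12 h, then 1874 and 2713 at 48 h. It fell by 40% at 48 h vs 0 h (log2 fold change -0.74, SE 0.16, adjusted p = 0.0031) and fell by 35.2% at 48 h vs 12 h (-0.63, SE 0.16, adjusted p = 0.011). At 12 h vs 0 h it did not pass the test (-0.11, SE 0.16, adjusted p = 0.66), but with the GC offset it was -0.38 (adjusted p = 0.0053). The 48 h change was -0.49 without 48 h R1 and -1.03 without 48 h R2, and its call was lost without 0 h R2 (adjusted p = 0.065). Between 12 h and 48 h it was -0.39 without 48 h R1 and the call was lost without 12 h R1 (adjusted p = 0.096) or 12 h R2 (adjusted p = 0.13).

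Among single distal peaks of Klf5 the 4.8-kb peak 26.1 kb downstream (chr14:99322848-99327687) had the lowest adjusted p at 48 h vs 0 h. Its scaled reads were 449 and 435 at 0 h, 401 and 463 at 12 h, then 169 and 224 at 48 h. The loss fell between 12 h and 48 h (log2 fold change -1.13, SE 0.19, adjusted p = 0.00031). Against 0 h it was -1.17 (SE 0.19, adjusted p = 0.00011). Both calls held without each of the libraries in turn. The widest peak (chr14:99332568-99344713) held 1453 and 1438 at 0 h, 1504 and 1538 at 12 h, then 733 and 1092 at 48 h (-0.66, SE 0.16, adjusted p = 0.0071 at 48 h vs 0 h). The 10.8-kb peak next to it (chr14:99347256-99358065) held 1365 and 1247 at 0 h, 1102 and 1127 at 12 h, then 667 and 1031 at 48 h (-0.62, SE 0.17, adjusted p = 0.015). In both wide peaks the 48 h libraries were the lowest, with R1 below R2.

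Smaller called peaks lay in the gene body and just after it. The peak 14.2 kb downstream of the start site (chr14:99312894-99313753), over exons, held 53.4 and 92.3 scaled reads at 0 h, 38.6 and 38.6 at 12 h, then 37.7 and 40.4 at 48 h. It was lost at 12 h (log2 fold change -0.91, SE 0.3, adjusted p = 0.038). No other distal peak of the 3 genes was, so that 1 of 58 was lost (1.72%, against 2.45% of all distal peaks). The intronic peak 12.7 kb downstream (chr14:99310947-99312784) held 109 and 90.2 at 0 h, 62.2 and 80 at 12 h, then 38.9 and 67.1 at 48 h (-0.89, SE 0.28, adjusted p = 0.033 at 48 h vs 0 h). The intronic peak 10.9 kb downstream (chr14:99309664-99310514) held 45.2 and 44.6 at 0 h, 52.5 and 48.8 at 12 h, then 24.4 and 24.9 at 48 h. It was lost between 12 h and 48 h (-1.03, SE 0.3, adjusted p = 0.02). By these means the exonic peak was near its 48 h level at 12 h, whereas the peak 10.9 kb downstream was as high at 12 h as at 0 h. The 0 h libraries of the exonic peak differed, and without 0 h R2 its log2 fold change at 12 h was -0.47. The difference in course between the 2 peaks was not tested. Of the others, the peak at the 3′ end of the gene (chr14:99314365-99315456) had 56.4 and 39.3 at 0 h, 52.5 and 44.2 at 12 h, then 18.9 and 28.4 at 48 h (-0.99, SE 0.33, adjusted p = 0.043 at 48 h vs 0 h). The peak 22.1 kb downstream (chr14:99320820-99321777) had 64.7 and 49.9 at 0 h, 30 and 42.3 at 12 h, then 30 and 30.1 at 48 h (-0.93, SE 0.3, adjusted p = 0.041). The farthest peak, chr14:99388134-99388821, from which the Klf5 distal sequence above was taken and which was chosen after its values were seen, had the largest loss in the 3 loci. Its reads were few, with 21.6 and 35 at 0 h, 13.9 and 16.6 at 12 h, then 7.77 and 8.6 at 48 h (-1.76, SE 0.44, adjusted p = 0.0081). By position, 4 of 9 distal peaks within 20 kb, 4 of 11 between 20 and 60 kb and both peaks beyond 60 kb were lost at 48 h vs 0 h by edgeR, against 6.29% of all distal peaks. DESeq2 called 0, 2 and 0 peaks of these groups in the same comparison. It gave no adjusted p for 1, 1 and 0 of them. Differences between positions were not tested.

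**Figure D2:**
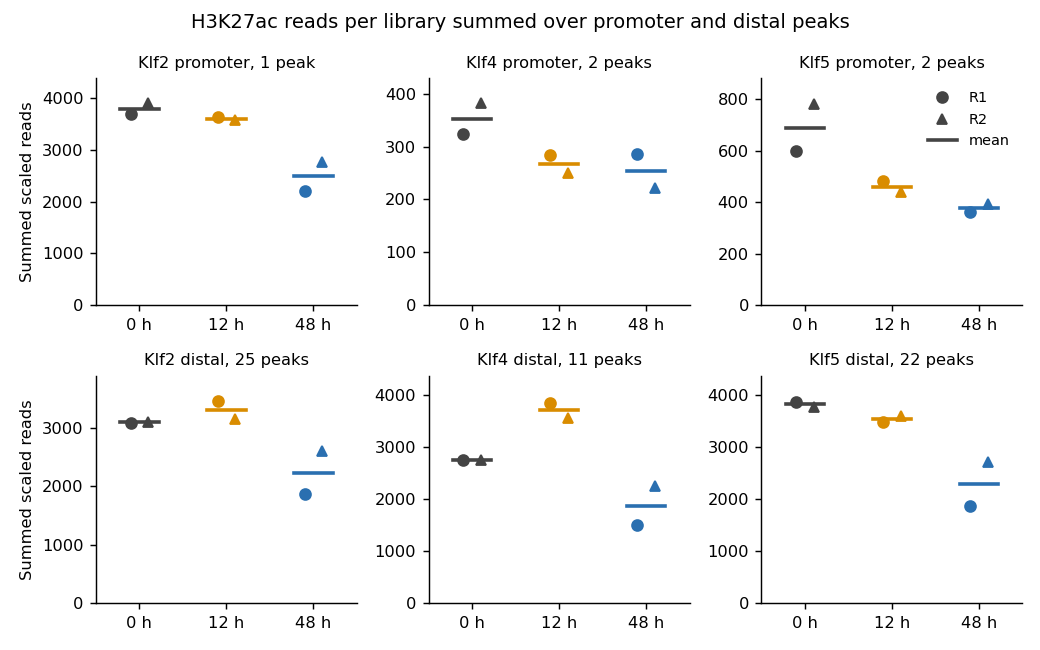
Scaled H3K27ac reads summed over the promoter peaks (top row) and the distal peaks (bottom row) of Klf2, Klf4 and Klf5 in each library (circles R1, triangles R2) with the mean of each time point as a line, on axes that start at 0. Both 48 h values lie below the 0 h values in all 6 panels, the 12 h values of the Klf4 distal sum are the highest of that panel, and R1 lies below R2 at 48 h in every panel except the Klf4 promoter.

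Counted over all 63 peaks, the 3 loci had few called changes at 12 h and losses without gains at 48 h. At 12 h vs 0 h 3 peaks gained (4.76%, against 9.93% of all merged peaks) and 3 lost (4.76%, against 6.03%). At 48 h vs 0 h 17 of 63 lost H3K27ac (27%, against 5.45% of all merged peaks) and none gained, against 8.56%, with no peak gaining at an unadjusted p under 0.05 or in DESeq2 either. From 12 h to 48 h 10 lost (15.9%, against 8.43%) and none gained, against 10.7%, again with none at an unadjusted p under 0.05 or in DESeq2. Without a test, both 48 h libraries were below both 0 h libraries in 34 of 63 peaks (54%, against 28.7% of all) and below the other 4 libraries in 21 (33.3%, against 15.0%). Both 12 h libraries were above the other 4 in 12 (19%, against 17.8%).

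By gene, at 48 h vs 0 h 3 of 26 Klf2 peaks were lost (11.5%), 2 of 13 Klf4 peaks (15.4%) and 12 of 24 Klf5 peaks (50%). Over all merged peaks 5.45% were lost. Both 48 h libraries were below both 0 h libraries in 9 of 26, 5 of 13 and 20 of 24 peaks. These were 34.6%, 38.5% and 83.3%, against 28.7% of all merged peaks. Of the distal peaks alone, 8%, 9.09% and 45.5% were lost, against 6.29% of all distal peaks. Both 48 h libraries were below both 0 h libraries in 32%, 27.3% and 81.8% of them, against 32.2%. At 12 h both libraries were above the other 4 in 6 of 13 Klf4 peaks, 4 of 26 Klf2 peaks and 2 of 24 Klf5 peaks. These were 46.2%, 15.4% and 8.33%, against 17.8%. The count of 17 lost peaks was 15 without 48 h R1 and 20 without 48 h R2. It was 5 without 0 h R1, 1 without 0 h R2 and 8 without either 12 h library. It was 10 with TMM factors, 5 in DESeq2 and 21 with the GC offset. The 10 lost at 48 h vs 12 h became 2 without 12 h R1, 4 without 12 h R2 and 20 without 48 h R2. Of the gains at 12 h none was called without 0 h R1, 0 h R2 or 12 h R1, 1 without 12 h R2, and 5 without 48 h R1 or 48 h R2. Of the losses at 12 h none was called without 0 h R2, 12 h R1 or 12 h R2, and 7 without 48 h R1 or 48 h R2. Of all 33 calls of single peaks in the 3 comparisons, 3 held without each of the 6 libraries in turn and 30 were lost without at least 1 of them.

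**Figure D3:**
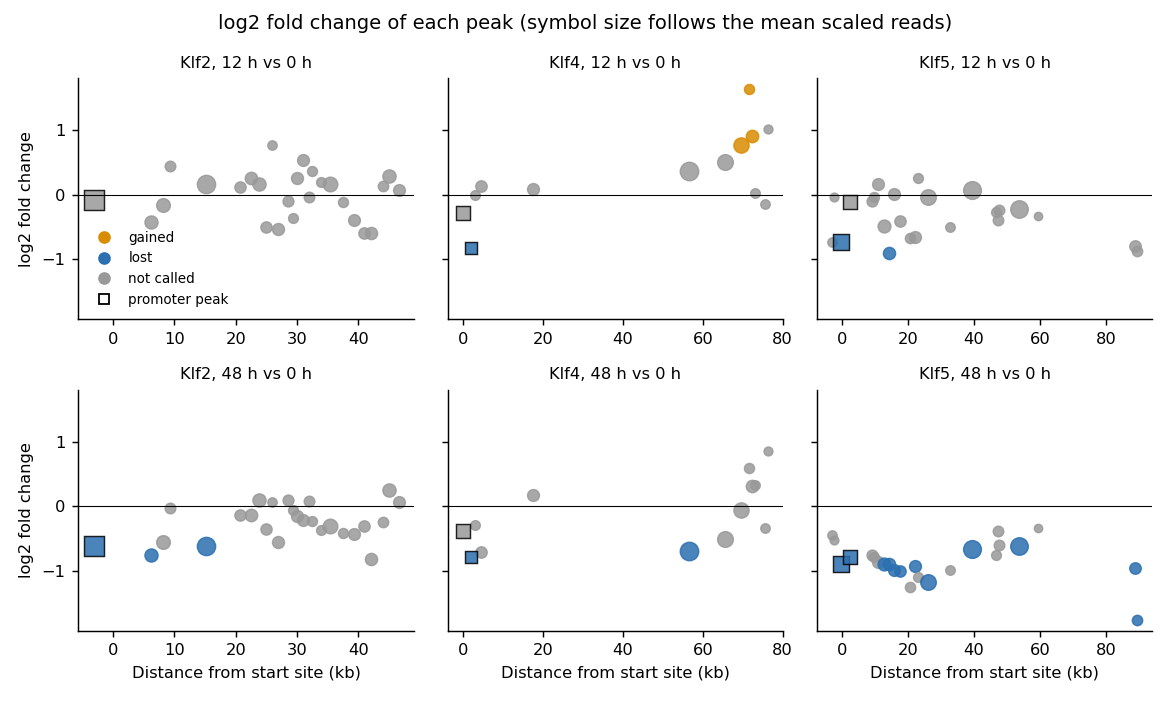
The log2 fold change (vertical axis) of each peak of Klf2, Klf4 and Klf5 against its distance from the start site (kb, horizontal axis) at 12 h vs 0 h (top row) and 48 h vs 0 h (bottom row), coloured by the edgeR call, with promoter peaks as outlined squares and symbol size following mean scaled reads. The 3 gained peaks lie in the far downstream group of Klf4 at 12 h, and all peaks of Klf5 are below 0 at 48 h.

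Whether distal peaks changed more than promoter peaks was tested directly, within each library. At Klf2 the promoter sum is the single 16.5-kb peak, which reaches far upstream of the 2 kb window. Its reads cannot be split into promoter and upstream parts, so at Klf2 the test does not compare the promoter alone with distal peaks. At Klf2 the distal sum was 0.834 and 0.797 times the promoter sum at 0 h and 0.842 and 0.943 times at 48 h. No comparison passed the test (log2 difference 0.17 at 12 h and 0.13 at 48 h against 0 h, and -0.04 between 12 h and 48 h, each with SE 0.15). At Klf4 the distal sum was 8.5 and 7.19 times the promoter sum at 0 h, 13.6 and 14.2 times at 12 h, and 5.21 and 10.2 times at 48 h. Both 12 h libraries were above the other 4, and the 48 h libraries lay on either side of the 0 h libraries. The distal peaks of Klf4 gained relative to the promoter at 12 h (0.83, SE 0.26, adjusted p = 0.046) and lost relative to it between 12 h and 48 h (-0.93, SE 0.26, adjusted p = 0.026). At Klf5 no comparison passed the test (0.46 at 12 h with SE 0.2 and adjusted p = 0.14, 0.1 at 48 h with SE 0.2 and adjusted p = 0.83, and -0.36 between them with SE 0.21 and adjusted p = 0.21).

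The shift at Klf4 had the direction of the whole table. Over the 7648 genes with both kinds of peak, 12.7% of ratios were gained at 12 h vs 0 h with a median log2 difference of 0.38. Between 12 h and 48 h 18.7% were lost with a median of -0.49. Across all peaks the 12 h log2 fold change fell with GC content (Pearson's r -0.49, a description). With the GC offset the Klf4 difference at 12 h was 0.29 (SE 0.16, adjusted p = 0.25) and that between 12 h and 48 h was -0.64 (SE 0.16, adjusted p = 0.005). The Klf5 difference at 12 h was then 0.03 (SE 0.14). The part of GC content in the 12 h result was not tested. The Klf4 call at 12 h was also lost without 0 h R1 (adjusted p = 0.14), 0 h R2 (0.35), 12 h R1 (0.24) or 12 h R2 (0.31). The call between 12 h and 48 h was lost without 0 h R1 (0.055), 0 h R2 (0.055), 12 h R1 (0.18) or 12 h R2 (0.22). Its value was -0.45 without 48 h R1 and -1.42 without 48 h R2. With a distance limit of 50 kb, which removes the 8 distant peaks of Klf4 by construction, the differences were 0.49 and -0.20 and neither was called. The Klf4 difference at 48 h vs 0 h was -0.1 (SE 0.26), 0.38 without 48 h R1 and -0.58 (adjusted p = 0.0033) without 48 h R2.

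**Figure D4:**
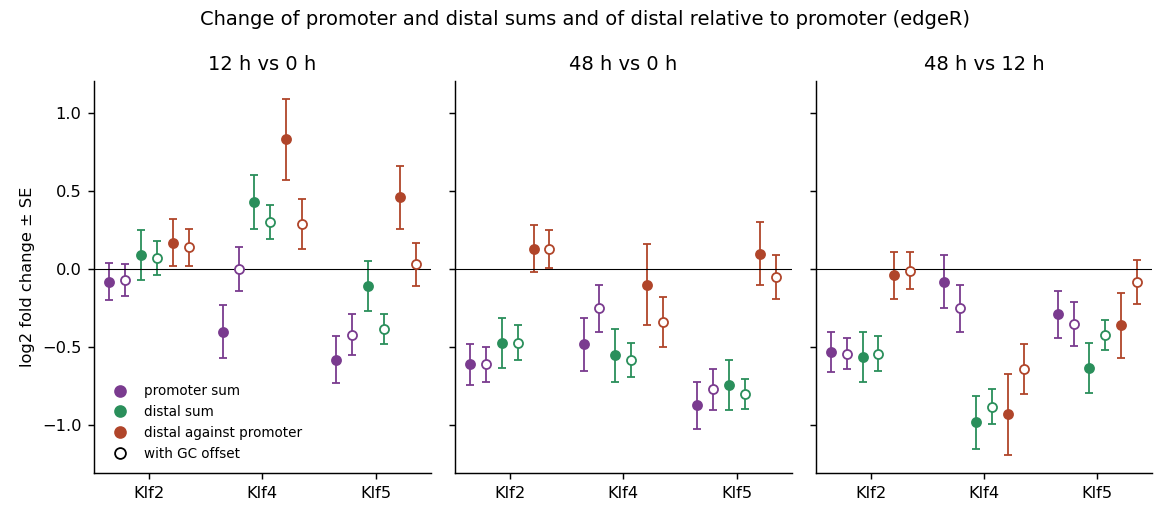
The log2 fold change with its SE (vertical axis) of the promoter sum, the distal sum and the distal sum relative to the promoter sum for Klf2, Klf4 and Klf5 in the 3 comparisons, from edgeR with library totals (filled) and with an offset on GC content (open). The distal sums are below 0 for all 3 genes at 48 h vs 0 h under both settings, whereas the distal change relative to the promoter at Klf4 at 12 h moves from 0.83 to 0.29.

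To see how other genes with related roles behaved, reads were summed over all peaks of a gene (the locus sum) for 3 lists. The locus sums of the 3 genes fell at 48 h vs 0 h, Klf2 by 31.5% (log2 fold change -0.55, SE 0.13, adjusted p = 0.017), Klf4 by 31.3% (-0.54, SE 0.14, adjusted p = 0.026) and Klf5 by 40.7% (-0.76, SE 0.14, adjusted p = 0.0044). Leaving out 1 library of 0 h raised the adjusted p to 0.12 (R1) and 0.21 (R2) for Klf2, 0.15 and 0.24 for Klf4 and 0.055 and 0.097 for Klf5. Leaving out 1 library of 12 h raised it to 0.052 for Klf2 and 0.066 for Klf4, and with only the 4 libraries compared it was 0.05 and 0.065. Without 48 h R1 and without 48 h R2 the changes were -0.36 and -0.76 for Klf2, -0.32 and -0.80 for Klf4, and -0.54 and -1.01 for Klf5. Of 16 genes of the naive pluripotency network 10 lost and 1 gained at 48 h vs 0 h, with a median of -0.48, against 6.60% lost, 7.05% gained and a median of 0.01 over 15440 genes. The called genes with the most reads included Esrrb, an orphan nuclear receptor (-0.52, adjusted p = 0.03), Sox2, an HMG-box factor (-0.35, adjusted p = 0.04), and Nanog, a homeobox factor (-0.35, adjusted p = 0.043). Gbx2, another homeobox factor, was the gain (0.83, adjusted p = 0.00038). At 12 h vs 0 h 2 of these 16 were gained and 2 lost, against 8.58% and 20.5% of all genes. The list was chosen with results of these samples known and is not independent evidence of a direction.

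Of 8 genes of the LIF and STAT3 pathway 2 lost at 48 h vs 0 h, against 6.60% of all genes. The other 6 did not pass the test, and the median was 0.02. The losses were at Pim1 (log2 fold change -0.51, adjusted p = 0.0077) and Pim3 (-0.42, adjusted p = 0.025), which encode serine/threonine kinases. At 12 h vs 0 h 1 of the 8 gained, the receptor gene Lifr (1.08, adjusted p = 0.0018), and 2 lost, the kinase gene Jak1 (-0.93, adjusted p = 0.039) and Pim3 (-0.54, adjusted p = 0.0084). Over all genes 8.58% gained and 20.5% lost at 12 h vs 0 h. Lifr lost between 12 h and 48 h (-0.61, adjusted p = 0.016). Of 23 other Klf and Sp genes 21 had peaks. At 48 h vs 0 h 5 lost and 3 gained, against 6.60% and 7.05% of all genes, with a median of -0.16. Klf12 (-0.43, adjusted p = 0.02) and Klf10 (-0.43, adjusted p = 0.036) lost, and Klf7 (0.72, adjusted p = 0.0044), Sp8 (1.45, adjusted p = 0.00016) and Klf14 (1.19, adjusted p = 0.02) gained. Klf14 was named after its values were seen, to complete the count.

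**Figure D5:**
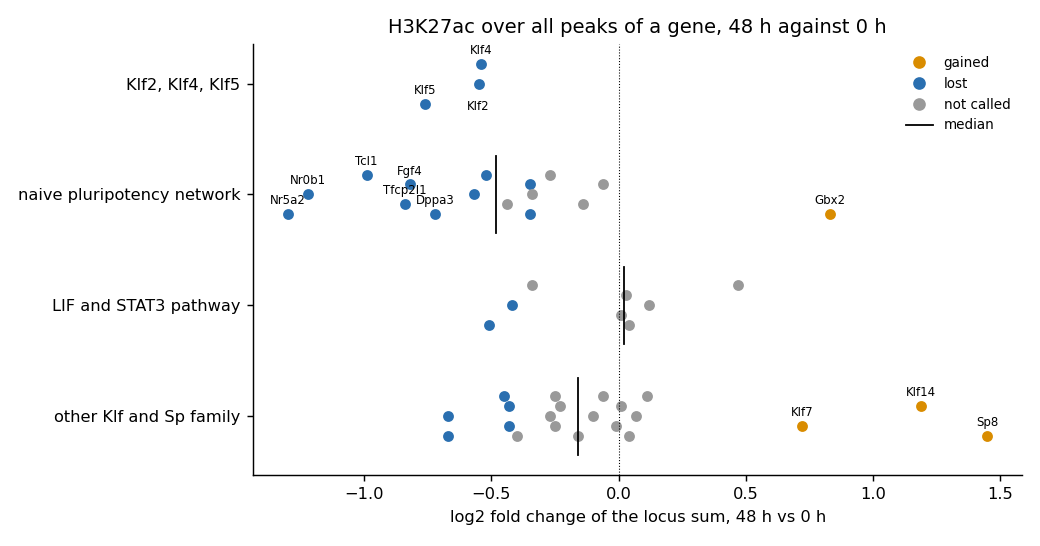
The log2 fold change of the locus sum at 48 h vs 0 h (horizontal axis) for Klf2, Klf4 and Klf5 and for the genes of 3 lists (rows), 1 point per gene coloured by the edgeR call, with the median of each list as a line. The 3 genes lie at -0.55, -0.54 and -0.76, beside the naive pluripotency network with a median of -0.48 and to the left of the medians of the other lists.

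The course of a locus sum over the 6 libraries was compared with that of 10714 genes with a mean sum of at least 100 scaled reads, as Pearson's r of log2 scaled sums with a pseudocount of 8. This is a description over 6 libraries that share their totals and their 3 time points. The 5 genes most like Klf2 were Tfcp2l1 (r 0.999), Tns3 (0.998), Etnk1 (0.997), Zfp819 (0.996) and Rab31 (0.996). Those most like Klf4 were Crabp1 (0.998), Elovl6 (0.997), Bcl2l14 (0.997), Npepps (0.996) and Golph3 (0.996), and those most like Klf5 were Gm8765 (0.999), Slc2a3 (0.996), Zbtb45 (0.996), D930048N14Rik (0.996) and Apobec3 (0.994). Between the 3 genes r was 0.976 for Klf2 and Klf5, 0.932 for Klf2 and Klf4 and 0.838 for Klf4 and Klf5.

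The KLF word GGGNGTGG occurred 0.438 times per kb in the 58 distal peaks, against 0.498 in all distal peaks. Of the SOX, STAT3, ESRRB and octamer words, CATTGTT (SOX), the shortest, was the most frequent, with 0.156 places per kb against 0.143. It had 3, 1, 3 and 2 places in the 10.4-kb Klf2, 12.8-kb Klf4, 12.1-kb Klf5 and 10.8-kb Klf5 peaks. TTCCNGGAA occurred 0.0208 times per kb against 0.0364, TCAAGGTCA 0.0625 against 0.0379, and ATGCAAAT 0.0521 against 0.0552. In the distal peaks of at least 10 kb, the STAT3, ESRRB and octamer words were found at the 6 places shown here with their flanks, from mm10 on the plus strand, with the words in capitals. They lie at chr4:55474115-55474155 and chr4:55476409-55476449 in the 12.8-kb Klf4 peak, at chr14:99340244-99340283 in the 12.1-kb Klf5 peak, and at chr14:99354909-99354949, chr14:99353275-99353314 and chr14:99355516-99355555 in the 10.8-kb Klf5 peak.
Klf4 STAT3 word: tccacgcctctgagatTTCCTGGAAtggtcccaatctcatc
Klf4 ESRRB word: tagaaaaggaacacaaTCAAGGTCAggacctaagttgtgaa
Klf5 octamer in the 12.1-kb peak: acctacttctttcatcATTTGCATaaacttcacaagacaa
Klf5 STAT3 word: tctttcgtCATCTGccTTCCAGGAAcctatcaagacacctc
Klf5 octamer, upstream place in the 10.8-kb peak: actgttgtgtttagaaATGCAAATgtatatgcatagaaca
Klf5 octamer, downstream place in the 10.8-kb peak: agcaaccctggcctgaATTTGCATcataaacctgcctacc
The Klf5 STAT3 stretch also holds CAGATG on the other strand. The 10.4-kb Klf2 peak held none of these 3 words. Of the E-boxes, CAGATG occurred 8 times in the wide Klf2 peak, 7 times in the Klf4 peak and 5 and 7 times in the Klf5 peaks. CAGCTG occurred 8, 13, 3 and 4 times. Per kb CAGATG occurred 0.771, 0.546, 0.412 and 0.648 times in these peaks, against 0.796 in all distal peaks. For CAGCTG the rates were 0.771, 1.01, 0.247 and 0.37, against 0.586. Over all distal peaks of a gene, CAGCTG occurred 0.965 times per kb at Klf2, 0.763 at Klf4 and 0.4 at Klf5, against 0.586 in all distal peaks, and CAGATG 0.965, 0.682 and 0.45 times, against 0.796. In the 300 bases at the centre of each of the 63 peaks, CAGATG was found in 12 (19%, against 18.5% of all peaks), CAGCTG in 12 (19%, against 16.1%) and GGGNGTGG in 6 (9.52%, against 13.5%). TCAAGGTCA was found in 4 (6.35%, against 0.957%) and ATGCAAAT in 2 (3.17%, against 1.18%). TTCCNGGAA and CATTGTT, present in 1.01% and 3.35% of all peaks, were found in none of these windows. These are counts of letters and not of bound sites.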

How the data were processed

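H3K27ac ChIP-seq libraries of A2Lox embryonic stem cells (0 h, 12 h and 48 h of induction, 2 each) were used, and the Input library was not used here. The authors used Bowtie2 (local alignment, mm10) and SAMtools 0.1.19, called peaks with MACS2 against Input, merged peaks over all samples and deposited raw counts per merged peak from QuasR. From these counts, peaks, promoter sums, distal sums and locus sums were each fitted by quasi-likelihood (edgeR 4.0.16, R 4.3.3). Each fit was 1 model with all 6 libraries and their totals as offset. The fit of the peaks had 3 residual degrees of freedom and a biological coefficient of variation of 14.9%. Distal against promoter was fitted on both sums of each library, with the library as a block. p-values were adjusted by Benjamini-Hochberg over all features, with a threshold of 0.05.

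Members and lists were chosen with earlier results of these data known. Described with every library's value were all promoter peaks, the strongest distal peak of each gene and called distal peaks up to 8 per gene by mean reads, with exceptions named where they occur. The sequences shown from distal peaks replaced the planned windows at peak centres, after values were seen. Promoter sequences were matched by symbol for 2 of the 3 genes. Alternatives were TMM factors, DESeq2 1.42.0, a filter of 10 reads in 2 libraries, the replicate number as a block, only the 4 libraries of a comparison, leaving out each library, a lowess offset on GC content (span 0.3), 1 start site per gene, a promoter window of 1 kb and a limit of 50 kb. Fits were tested on simulated data. Python 3.11.15 with pandas 2.3.3, numpy 2.4.6, pysam 0.24.0 and matplotlib 3.10.9 was used.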

Additional observations from a re-analysis of the deposited data

Results flagged for a closer look

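The effects of 12 h and of 48 h, both against the same 0 h libraries, differed by the direct test of 48 h against 12 h (edgeR) for 4 sums. For the Klf2 promoter sum the log2 fold changes were -0.08 at 12 h and -0.61 at 48 h, a difference of -0.53 (adjusted p = 0.01). For the Klf2 distal sum they were 0.09 and -0.47, a difference of -0.56 (adjusted p = 0.018). For the Klf4 distal sum they were 0.43 and -0.55, a difference of -0.98 (adjusted p = 0.00073), which was -0.72 without 48 h R1 and -1.31 without 48 h R2. For the Klf5 distal sum they were -0.11 and -0.74, a difference of -0.63 (adjusted p = 0.011). The 2 libraries of 48 h differed more than those of the other time points, and the part of this in these differences was not tested.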

How the results depend on the processing

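Of 225 alternative values of the promoter sums, distal sums and their ratios that did not leave out a library, 203 kept their direction and their side of the threshold, and 110 of 162 did so when 1 library was left out. With the 4 libraries of a comparison fitted alone, the peaks gained and lost at 12 h were 5 and 7 and those lost at 48 h vs 0 h were 8. The Klf2 promoter sum at 48 h vs 0 h (-0.61), the Klf2 distal sum at 48 h vs 0 h (-0.47) and 48 h vs 12 h (-0.56), the Klf4 distal sum at 48 h vs 0 h (-0.55) and the Klf4 ratio at 48 h vs 12 h (-0.93) then missed the threshold, and at 12 h the Klf4 promoter sum (-0.40), Klf4 distal sum (0.43) and Klf5 ratio (0.47) passed it. DESeq2 called 1 gained and 1 lost peak at 12 h and 5 lost at 48 h vs 0 h, missed the Klf2 distal sum at 48 h vs 0 h (-0.41) and called the Klf4 distal sum at 12 h (0.48), and it gave no adjusted p for 19, 3 and 25 of the 63 peaks. TMM factors left 1 lost peak at 12 h and 10 at 48 h vs 0 h, with the Klf4 distal sum at 0.50 and the Klf5 promoter sum at -0.52 at 12 h. With the GC offset 6 peaks were lost at 12 h, the Klf5 promoter sum at 48 h vs 12 h (-0.35) and distal sum at 12 h (-0.38) were called, the Klf4 ratio at 12 h was 0.29 and the Klf5 ratio at 48 h vs 0 h turned to -0.05. The 50 kb limit removes the far Klf4 peaks by construction and left no gained peak at 12 h (0), Klf4 distal sums of -0.19 and -0.28 at 48 h vs 0 h and vs 12 h, Klf4 ratios of 0.49 (12 h vs 0 h), 0.29 (48 h vs 0 h) and -0.20 (48 h vs 12 h), and Klf4 locus sums of -0.29 (12 h vs 0 h), -0.42 (48 h vs 0 h, adjusted p = 0.096) and -0.13 (48 h vs 12 h, adjusted p = 0.51). A promoter window of 1 kb gave a Klf4 ratio of 0.68 at 12 h. The cause of the differences between settings was not tested.

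Leaving out 1 library at a time, the counts ranged from 0 to 5 (gained at 12 h), 0 to 7 (lost at 12 h), 1 to 20 (lost at 48 h vs 0 h) and 2 to 20 (lost at 48 h vs 12 h). For the 12 h effects the ranges were -0.04 to 0.04 for the Klf2 locus sum (-0.02 and -0.04 without R1 of 0 h and of 12 h), -0.52 to -0.28 and 0.37 to 0.49 for the Klf4 promoter and distal sums, -0.76 to -0.38 for the Klf5 promoter sum, and 0.71 to 0.95 and 0.25 to 0.67 for the Klf4 and Klf5 ratios. At 48 h vs 0 h they were -0.78 to -0.46 and -0.74 to -0.25 for the Klf2 promoter and distal sums, -0.67 to -0.30 and -0.88 to -0.28 for those of Klf4, -1.05 to -0.67 and -1.03 to -0.49 for those of Klf5, -0.58 to 0.38 for the Klf4 ratio and -0.11 to 0.31 for the Klf5 ratio. At 48 h vs 12 h they were -0.70 to -0.38 and -0.83 to -0.34 for the Klf2 sums, -0.12 to 0.04 for the Klf2 ratio, -0.26 to 0.10 and -1.31 to -0.72 for the Klf4 promoter and distal sums, -1.42 to -0.45 for the Klf4 ratio, -0.36 to -0.22 and -0.92 to -0.39 for the Klf5 sums and -0.57 to -0.16 for the Klf5 ratio. With the library number as a replicate block no call of a sum changed and the counts stayed at 3 and 3, 17 and 10. R1 and R2 share only a number (r of their deviations -0.04, -0.05 and 0.08 between time points), and the ratio already had the library as a block.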
